A study of Saccharomyces cerevisiae with 6 samples.

Results

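The 10 yeast genes followed here belong to the general stress response: the transcription factor genes MSN2 (YMR037C) and MSN4 (YKL062W), and 8 genes for stress proteins, HSP12 (YFL014W), GRE1 (YPL223C), SIP18 (YMR175W), STF2 (YGR008C), SPI1 (YER150W), YGP1 (YNL160W), DDR2 (YOL052C-A) and MSC1 (YML128C). They were chosen by systematic ORF name, and all 10 were among the 5657 genes measured. Each was read by 1 probe set of the type that marks a single transcript. The genes were picked with their response in these data known, so their difference between the groups is given below as a description, without a test.

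Saccharomyces cerevisiae of the wild-type laboratory strain CEN.PK 113-7D was grown aerobically in shake flasks, 3 cultures with BSA and 3 without it. The labels give only the abbreviation BSA, which usually stands for bovine serum albumin, the main protein of cow blood serum. Neither its amount nor the medium is stated in the labels. All 6 cultures shared the strain, 50 mL of medium in 250 mL baffled flasks, a temperature of 30 °C and shaking at 175 rpm. The labels place sampling at 48 h, whereas the design text places it early in growth on glucose. Each culture gave 1 Affymetrix array of total RNA, and the labels call the arrays of a group biological replicates.

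Msn2 and Msn4 are related zinc finger proteins that bind the stress response element in yeast promoters. Protein kinase A, which is active when glucose is plentiful, keeps them out of the nucleus. When growth slows or a stress sets in they enter the nucleus and switch on a broad set of protective genes. MSN4 is known as a stress-inducible gene itself, whereas MSN2 transcript is known as steady. The genes for small, very hydrophilic proteins that protect dried cells (hydrophilins) and for several wall proteins are among the classic members of this response.

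The values are log2 expression as deposited by the authors. Array medians were 7.56 to 7.58 with BSA and 7.61 to 7.62 without it. No BSA replicates 2 and 3 lay closest together, with an SD over all genes of 0.0567 between them, against 0.117 to 0.198 for the other pairs within a group. They were kept as separate samples. Over all genes, limma called 4268 (75.4%) at an adjusted p under 0.05, 1603 higher and 2665 lower with BSA. The median difference of all genes was -0.13. That split depends on the scaling. Centring every array by its median deviation from the mean of each gene gave 2074 higher and 2056 lower, and cyclic loess gave 1986 and 2073. On every array the median level of 7 a-cell marker genes lay above the first quartile of the array, and that of 4 alpha-cell markers below it. The a-cell markers had a median log2 difference of -0.02, with 3 lower, 0 higher (0 also without adjustment of p) and 4 not called by limma.

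All 10 genes were higher with BSA on average, and their differences lay in 2 ranges. SPI1, YGP1, MSN4, GRE1 and SIP18 were 2.66-fold to 9.33-fold higher, whereas HSP12, DDR2, STF2, MSN2 and MSC1 were 1.13-fold to 1.40-fold higher. In 9 of the 10 genes the groups did not overlap, each time with BSA higher. Over all genes the groups were apart in 79.5%, with BSA higher in 29.6% and BSA lower in 49.9%. At least 2-fold higher were 5 of the 10, beside 7.04% of all genes. The 10 genes had a median log2 difference of 0.95, or 1.08 relative to the median of all genes. By limma, 9 of the 10 passed as higher, beside 28.3% of all genes, and 0 as lower, with or without adjustment of p. As the genes were chosen on this comparison, nothing is read from these counts. In a bulk culture, more RNA per cell and more cells with that RNA cannot be told apart.

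**Figure D1:**
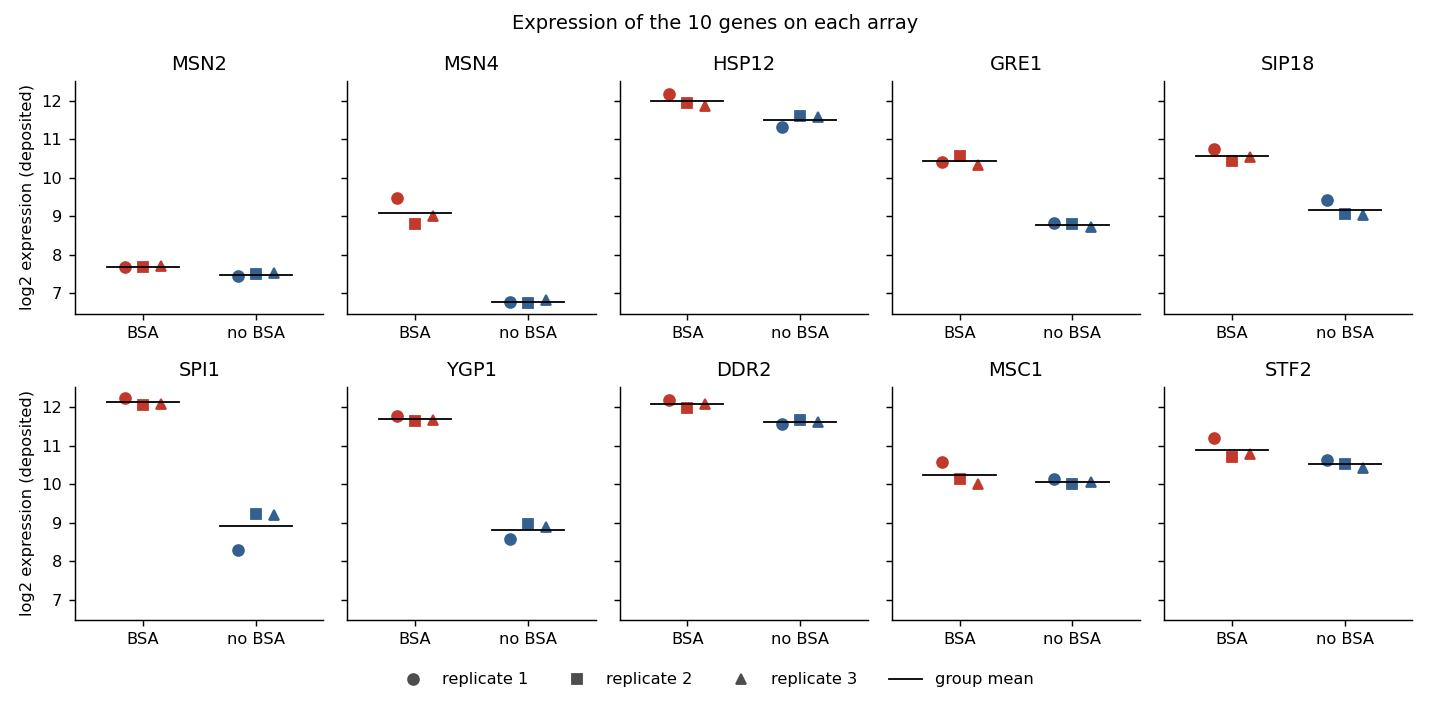
Deposited log2 expression of the 10 genes on each of the 6 arrays, with BSA left of no BSA; symbols mark the replicate and the black line the group mean. MSN4, GRE1, SIP18, SPI1 and YGP1 show wide gaps between the groups, MSN2, HSP12, DDR2 and STF2 narrow ones, and MSC1 overlaps.

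Of the regulators, MSN4 differed far more than MSN2. MSN4 had log2 values of 9.47, 8.79 and 9.01 with BSA, against 6.77, 6.75 and 6.83 without it. The lowest BSA array stood 1.96 above the highest array without BSA. Its mean was 9.09 ± 0.34 with BSA and 6.78 ± 0.04 without it (SD, n = 3 each), a log2 difference of 2.31 ± 0.15 (SE of the fit), or 4.94-fold. On all 3 arrays without BSA the MSN4 signal lay below the first quartile of the array, so its level there was dim. The same held for SPS100, CYC7, MRK1, HOT1 and SUC2 without BSA.

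MSN2 had log2 values of 7.70, 7.68 and 7.71 with BSA, against 7.44, 7.51 and 7.52 without it. The groups were apart by 0.16, and the replicates were tight, with ranges of 0.03 with BSA and 0.08 without it. The log2 difference was 0.21 ± 0.05 (SE), or 0.34 relative to the median of all genes, which is 1.15-fold as deposited. Relative to all genes, 27.1% of genes had a higher difference than MSN2 and 0.884% a higher one than MSN4.

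The hydrophilins GRE1 and SIP18, which are copies of one ancestral gene, were both higher with BSA. GRE1 had log2 values of 10.41, 10.56 and 10.33 with BSA, against 8.84, 8.80 and 8.72 without it, a difference of 1.64 ± 0.07 (SE) or 3.12-fold. SIP18, whose protein binds phospholipids and is known to help cells survive drying and rewetting, had 10.75, 10.45 and 10.53 with BSA, against 9.42, 9.06 and 9.03 without it. Its difference was 1.41 ± 0.12 (SE), or 2.66-fold. For both genes the lowest BSA array stood more than 1 above the highest array without BSA, by 1.49 for GRE1 and 1.03 for SIP18. The intervals of the 2 differences overlapped, 1.48 to 1.81 for GRE1 and 1.13 to 1.69 for SIP18 (95% interval of the fit).

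The other hydrophilins of the group differed less. HSP12, a small protein that binds membranes and stabilises them, had log2 values of 12.18, 11.93 and 11.86 with BSA, against 11.33, 11.62 and 11.59 without it. Its difference was 0.48 ± 0.11 (SE), or 1.40-fold, and the groups were apart by 0.25. STF2, first known as a factor that stabilises the inhibited mitochondrial ATP synthase, had 11.18, 10.71 and 10.78 with BSA, against 10.63, 10.52 and 10.42 without it. The STF2 groups were apart by only 0.08, with a difference of 0.37 ± 0.12 (SE). Without BSA replicate 1, which held its highest value, the STF2 difference was 0.22.

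The genes for proteins of the cell surface differed most. SPI1, a wall protein held by a lipid anchor and known for protection against weak acids, had log2 values of 12.24, 12.05 and 12.07 with BSA, against 8.28, 9.21 and 9.20 without it. No BSA replicate 1 was the low array of a group that spanned 0.93, and the groups were apart by 2.84. The mean was 12.12 ± 0.11 with BSA and 8.90 ± 0.53 without it (SD, n = 3 each), a difference of 3.22 ± 0.23 (SE) or 9.33-fold. Without no BSA replicate 1 the log2 difference was 2.92.

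YGP1, a secreted glycoprotein known to be induced when nutrients run short, had log2 values of 11.77, 11.64 and 11.67 with BSA, against 8.57, 8.96 and 8.88 without it. The groups were apart by 2.69. The mean was 11.69 ± 0.07 with BSA and 8.80 ± 0.20 without it (SD, n = 3 each), a difference of 2.89 ± 0.10 (SE) or 7.42-fold. As for SPI1, no BSA replicate 1 was the lowest array.

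DDR2, a small gene induced by many stresses and by DNA damage, had log2 values of 12.18, 11.96 and 12.07 with BSA, against 11.55, 11.66 and 11.61 without it. The groups were apart by 0.30, and the difference was 0.46 ± 0.07 (SE), or 1.38-fold. MSC1, a gene named for its part in recombination between sister chromatids in meiosis, had 10.58, 10.13 and 9.999 with BSA, against 10.12, 10.01 and 10.05 without it. It was the one gene whose groups overlapped, with a difference of 0.18 ± 0.14 (SE) and an interval of -0.15 to 0.50. BSA replicate 1 held the highest value, and without this array the difference was 0.0047.

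**Figure D2:**
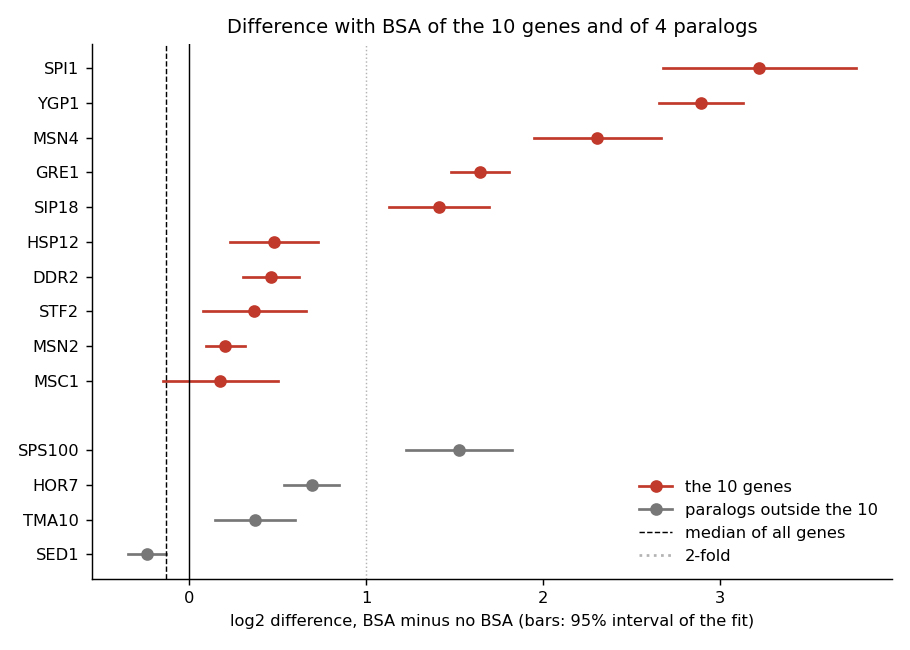
Log2 difference, BSA minus no BSA, of the 10 genes (red) and of 4 paralogs (grey), each with the 95% interval of the fit; the solid line marks 0, the dashed line the median of all genes and the dotted line 2-fold. SPI1 and YGP1 are farthest right, the interval of MSC1 includes 0, and SED1 lies left of 0.

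HSP12 and DDR2 already sat near the top of the scale without BSA. Array maxima were 12.26 to 12.66 with BSA and 12.56 to 12.86 without it, and HSP12 and DDR2 had 11.33 to 11.66 without BSA. Of the 92 genes with a mean above 11 without BSA, 0 were at least 2-fold higher with BSA, and the largest log2 difference among them was 0.69, for HOR7. Of the other 5565 genes, 398 (7.15%) were at least 2-fold higher. The 92 include ribosomal protein genes, a class that mostly fell with BSA. The contrast therefore mixes gene class with signal level, and nothing on the array scale is read from it. SPI1 with BSA stood at 12.05 to 12.24. Whether the array scale flattens in this range was not tested.

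Besides MSN2 with MSN4 and GRE1 with SIP18, which are paralogs within the group, 4 of the genes have a paralog outside it. SED1, the paralog of SPI1 and a major structural wall protein, had log2 values of 12.13, 12.09 and 12.13 with BSA, against 12.38, 12.36 and 12.32 without it. It fell by 0.24 ± 0.05 (SE, limma adjusted p = 0.00213), while SPI1 was 3.22 higher. The SED1 call was lost after quantile normalization (limma adjusted p = 0.0931) and with arrays centred on the median deviation (limma adjusted p = 0.0854), and under both the value stayed below 0.

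SPS100, the paralog of YGP1 and known from spore wall formation, had log2 values of 7.79, 8.01 and 8.35 with BSA, against 6.53, 6.52 and 6.53 without it. It rose by 1.52 ± 0.13 (SE, limma adjusted p = 3.08e-05), against a difference of 2.89 for YGP1. HOR7, the paralog of DDR2 and a gene induced by high osmolarity, had 12.37, 12.16 and 12.26 with BSA, against 11.53, 11.62 and 11.56 without it. HOR7 rose by 0.69 ± 0.07 (limma adjusted p = 5.4e-05), against 0.46 for DDR2. TMA10, the paralog of STF2, had 11.80, 11.73 and 11.74 with BSA, against 11.15, 11.52 and 11.48 without it. It rose by 0.37 ± 0.10 (limma adjusted p = 0.00886), beside 0.37 for STF2. The differences between the copies of a pair were not tested, since at least 1 copy of each was chosen on this comparison.

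Within the BSA group, the 10 genes were mostly highest on the same array. On BSA replicate 1, 9 of the 10 genes lay above their BSA mean, with a median deviation of 0.147, whereas 1 of the 10 did so on BSA replicate 2 and 1 on BSA replicate 3. MSN4 (0.377), MSC1 (0.344) and STF2 (0.293) deviated most on that array. Of 40 other Msn2/4 targets, 35 (87.5%) lay above their BSA mean there, beside 41.3% of all genes, while ribosomal protein genes had a median deviation of -0.127. On the arrays without BSA, 4 to 6 of the 10 genes lay above the mean of their group. On no BSA replicate 1, SPI1 (-0.614), YGP1 (-0.232) and HSP12 (-0.180) were low and SIP18 (0.248) was high.

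**Figure D3:**
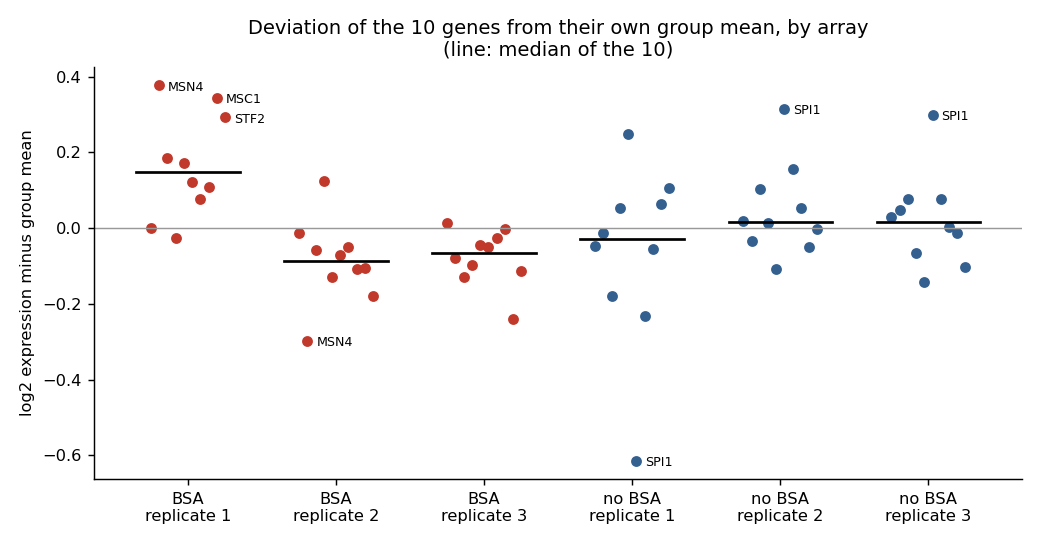
Deviation of each of the 10 genes from its own group mean in log2 units, by array, with BSA arrays in red and no BSA arrays in blue; the line is the median of the 10. The BSA replicate 1 points lie mostly above 0 (median 0.147), and SPI1 on no BSA replicate 1 is the farthest point (-0.614).

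The other targets of Msn2 and Msn4 moved mostly the same way. Of 40 such genes, 33 rose, 2 fell and 5 did not pass (limma, adjusted p under 0.05), beside 28.3% of all genes higher and 47.1% lower. Their median log2 difference was 0.62, against -0.13 for all genes. At least 2-fold higher were 11 of the 40, beside 7.04% of all genes. This list too was chosen with earlier results of these data known, so its counts are a description. CYC7, an isoform of cytochrome c, rose by 4.60 ± 0.15 (SE), and GAC1, which directs a phosphatase to glycogen synthase, by 2.10 ± 0.15. NQM1, a transaldolase, rose by 1.98 ± 0.07 and YRO2, a membrane protein, by 1.66 ± 0.23. The genes that fell were ALD4, the mitochondrial aldehyde dehydrogenase (-1.05 ± 0.07), and the glucokinase GLK1 (-0.24 ± 0.05). The GLK1 call was lost with arrays centred on the median deviation (limma adjusted p = 0.0801).

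Genes of other stress transcription factors were also higher. Of these 9 genes, 8 rose by limma, and 0 fell whether or not p was adjusted, beside 28.3% of all genes higher and 47.1% lower. Their median difference was 0.61. The list was chosen with earlier results of these data known, so these counts are a description. USV1 had the largest difference, 2.27 ± 0.23 (SE). GIS1, a factor of the entry into stationary phase, rose by 1.16 ± 0.14, HOT1, which works with the osmostress kinase Hog1, by 0.85 ± 0.05, and SKN7, a factor of the oxidative and osmotic stress response, by 0.65 ± 0.10. The number that rose was 5 after quantile normalization.

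Genes that act upstream of Msn2 and Msn4 moved in both directions. Of 12 genes of the protein kinase A arm, 7 rose and 4 fell, beside 28.3% of all genes higher and 47.1% lower. PDE1 and PDE2, the phosphodiesterases that break down cyclic AMP and so lower the kinase's activity, rose by 1.13 ± 0.11 and 0.29 ± 0.05 (SE). RAS2, which activates cyclic AMP synthesis, rose by 0.37 ± 0.09.

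The 4 that fell were IRA1, which turns Ras off (-0.63 ± 0.07), BCY1, the inhibitory subunit of the kinase (-0.24 ± 0.05), RAS1 (-0.19 ± 0.05) and CDC25, which turns Ras on (-0.17 ± 0.05). The BCY1 call was lost with arrays centred on the median deviation (limma adjusted p = 0.0911). RAS1, whose signal was dim on all 6 arrays, and CDC25 lost their calls under quantile normalization, centring on the median deviation and cyclic loess (limma adjusted p = 0.284 to 0.859 for RAS1 and 0.389 to 0.673 for CDC25), and CDC25 turned to 0.0242 after cyclic loess. RAS1 also missed the threshold without no BSA replicate 3 or BSA replicate 3 (limma adjusted p = 0.0554 and 0.051). CDC25 missed it without no BSA replicate 2 or 3 or BSA replicate 3 (limma adjusted p = 0.0567 to 0.0748). With no BSA replicates 2 and 3 averaged, CDC25 missed it too (limma adjusted p = 0.0725). These transcript levels say nothing of the activity of the kinase.

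Of 24 other upstream regulators, 9 rose and 10 fell. MRK1, a kinase of the GSK-3 family, rose by 3.46 ± 0.20 (SE), and PSR2, a phosphatase of the plasma membrane, by 1.39 ± 0.13. YAK1, a kinase that opposes protein kinase A and acts on Msn2, rose by 0.67 ± 0.15, and RTS1, a regulatory subunit of phosphatase PP2A, by 0.66 ± 0.13. Other parts of PP2A fell, the scaffold TPD3 by 0.64 ± 0.06, the catalytic subunit PPH22 by 0.42 ± 0.05 and the regulatory subunit CDC55 by 0.35 ± 0.06. RIM15, a kinase needed for entry into stationary phase, fell by 0.41 ± 0.06. Over both upstream lists 16 of 36 rose and 14 fell, beside the same shares of all genes (28.3% and 47.1%), and nothing particular to these lists is read from the counts. Of these 36, the number that fell was 7 with arrays centred on the median deviation and 8 after cyclic loess.

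**Figure D4:**
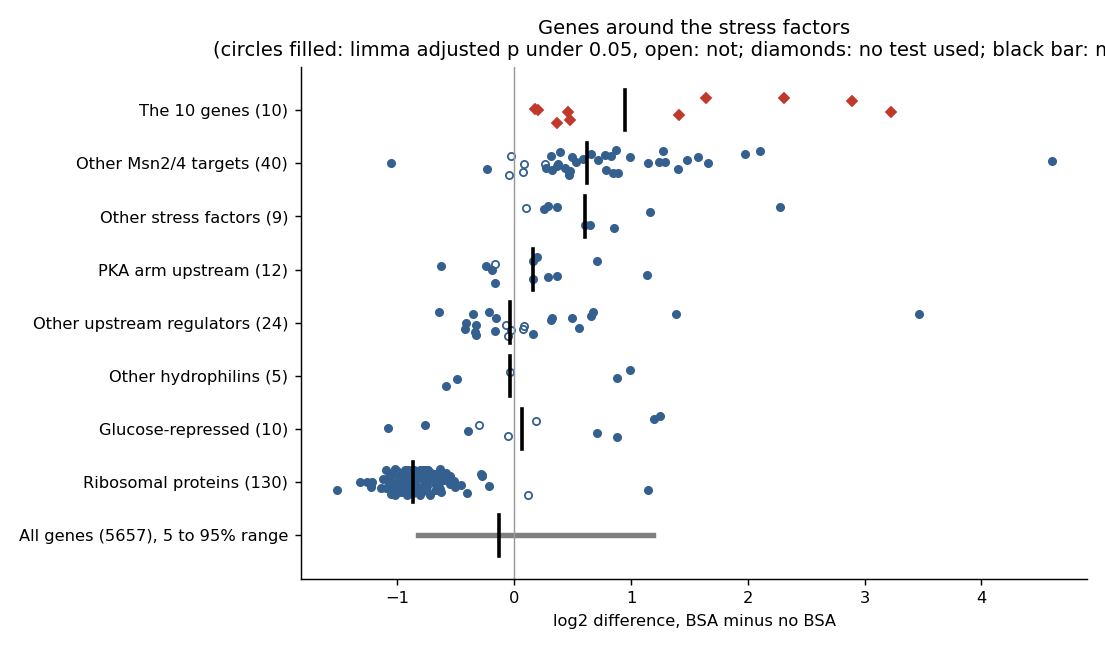
Log2 difference, BSA minus no BSA, of each gene of the 10 and of the related lists, with the number of genes in brackets; filled circles passed limma's adjusted p of 0.05, open circles did not, diamonds are the 10 genes without a test, black bars are medians and the grey line spans the 5th to 95th percentile of all genes (-0.82 to 1.19). The other Msn2/4 targets and the stress factors lie mostly right of 0, the upstream regulators on both sides and the ribosomal protein genes left of 0.

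Hydrophilin genes outside the 10 did not share one direction. Of these 5 genes, 2 rose, 2 fell and 1 did not pass, beside 28.3% of all genes higher and 47.1% lower. Nothing particular to hydrophilins is read from these counts. YNL190W rose by 0.99 ± 0.07 (SE, limma adjusted p = 1.85e-05) and ROQ1 by 0.88 ± 0.17 (limma adjusted p = 0.00182). NOP6 fell by 0.58 ± 0.07 (limma adjusted p = 0.000155) and CPP1 (YBR016W) by 0.49 ± 0.06 (limma adjusted p = 0.000245). GON7 did not pass, with a difference of -0.03 ± 0.05.

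Growth-related genes differed too, the ribosomal protein genes mostly opposite to the 10 genes and the glucose-repressed genes in both directions. Their part in the differences was not tested. Among 130 genes picked by ribosomal protein symbols 127 fell and 1 rose (median -0.87), beside 47.1% of all genes lower and 28.3% higher. The 130 include RPP1 (-0.45), which codes for a subunit of RNase P and not for a ribosomal protein. Of 10 genes repressed by glucose, 4 rose, 3 fell and 3 did not pass, beside the same shares of all genes (28.3% higher and 47.1% lower). Nothing particular to the glucose-repressed genes is read from these counts. CAT8 (1.25 ± 0.07, SE), FBP1 (1.20 ± 0.23), HXT7 (0.88 ± 0.13) and SUC2 (0.71 ± 0.18) rose, and HXT2 (-1.08 ± 0.12), ADH2 (-0.76 ± 0.15) and PCK1 (-0.39 ± 0.15) fell. PCK1 lost its call without no BSA replicate 1 or 3 (limma adjusted p = 0.115 and 0.058), without BSA replicate 1 or 3 (0.106 and 0.0855) and with the replicate block (0.0736). It also did so with arrays centred on their medians (limma adjusted p = 0.0566) or on the median deviation (0.126) and after cyclic loess (0.0731). The HXT2 signal was dim on all 6 arrays. HXT7 was read by a probe set of a type that can share signal with other genes. Without such probe sets, 3 of the glucose-repressed genes rose.

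Likeness was measured as the root mean square difference between gene-centred log2 values over the 6 arrays, which is set mainly by the difference between the groups. Nearest to SPI1 were YKL068W-A (0.165), AIM33 (0.229) and MPF1 (0.234). Nearest to YGP1 were MET32, a regulator of sulfur genes (0.0677), YJR096W (0.0816) and JID1 (0.103). Nearest to MSN4 were CIN5, a transcription factor of salt and drug tolerance (0.0859), KTD1 (0.0966) and URA10, an enzyme of pyrimidine synthesis (0.102). Nearest to GRE1 were DPB4, a subunit of DNA polymerase epsilon (0.0660), GTO1, a glutathione transferase (0.0667), and GSH1, the first enzyme of glutathione synthesis (0.0836). None of these nearest genes was one of the 10.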

How the data were processed

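Log2 expression values per probe set were deposited by the authors. PLIER and R 2.10.1 are named in the submitters' processing notes; the sources used here do not give their roles, the background correction or the normalization. The values' range was read as base 2. ORF names came from the authors' deposited annotation, and symbols from the RefSeq gene table of assembly R64. Of 5705 probe sets, the one with the highest mean per gene was kept (5657 genes). Groups and replicate numbers came from the labels. BSA was compared with no BSA in limma 3.58.1 (R 4.3.3) on all 6 arrays, without covariates, with Benjamini-Hochberg adjustment over all genes. No depth applies to arrays, and their number limits the precision.

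The 10 genes and all gene lists were chosen with earlier results of these data known. The text names all 10, their 4 paralogs outside the group, for each list the up to 4 called genes (all, where 5 or fewer) with the largest difference in each direction, and the 3 genes nearest to each of the 4 members that differed most. The fit was tested on simulated data. Alternatives were a replicate block, 3 variance settings (intensity trend, robust prior, array weights), 4 scalings, filters on dim or shared probe sets, the mean of probe sets, averaging no BSA replicates 2 and 3, leaving out each array, and an adjusted p under 0.01. Promoter motifs and protein composition had been planned and were not analysed here. A gene that the naming rule selects is not reported here.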

Additional observations from a re-analysis of the deposited data

How the results depend on the processing

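Of 19 alternatives, all kept the 10 differences above 0, and 5 of the 10 genes at least 2-fold higher. The number of the 10 that passed was 8 or 9, since STF2 missed the threshold with no BSA replicates 2 and 3 averaged, without no BSA replicate 2 or 3, and at an adjusted p under 0.01. As the 10 genes were chosen on this comparison, these counts describe the settings and are not a test of the genes. Leaving out 1 array at a time gave 3912 to 4277 genes called. Quantile normalization gave 5 stress factors higher, as did an adjusted p under 0.01, and 0 of 4 paralogs lower. Arrays centred on the median deviation gave 1 of the 40 targets lower, 7 upstream genes lower and 0 paralogs lower, and cyclic loess 8 upstream genes lower. CDC25 turned to 0.0242 after cyclic loess. The cause of these changes was not tested. The deviations of same-numbered arrays correlated at 0.103, 0.0187 and 0.0426, and not every array matched its own number best. Whether the replicate numbers pair the arrays cannot be decided from this, since the deviations in each group of 3 arrays sum to 0. With the replicate block, 4266 genes passed against 4268. The log2 median of all genes lay at -0.0007 with arrays centred on the median deviation and at -0.02 after cyclic loess, against -0.13 as deposited. Signals below the first quartile of their arrays were those of MSN4, SPS100, CYC7, MRK1, HOT1, SUC2, GTO1, AIM33, CIN5 and JID1 on the 3 arrays without BSA, of YKL068W-A and MPF1 on no BSA replicate 1, and of RAS1 and HXT2 on all 6 arrays.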
